A study of Homo sapiens with 4 samples.

Results

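The genes for de novo purine and pyrimidine synthesis were compared between control A549 cells and A549 cells in which the long noncoding RNA USP2-AS1 was knocked down. The 10 genes PPAT, GART, PFAS, PAICS, ADSL, ATIC, IMPDH2, CAD, UMPS and CTPS1 were chosen by name, with earlier results of these data known. Each was found among the 6828 genes of the deposited table, which holds only genes that passed the authors' own test of this contrast. All 10 were lower in the 2 knockdown libraries than in the 2 control libraries, as were 49.3% of all genes tested, with 50.6% higher without overlap. The size of the change ran from PPAT, whose mean fell to 22.2% of control, to CTPS1, whose mean was 81.5% of control.

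A549 is an established human lung adenocarcinoma line of epithelial origin. Both groups were A549 cells infected with lentivirus made from the PLKO.1 vector. The virus carried a control short hairpin RNA in the group shctrl and a hairpin against USP2-AS1 in the group shUSP2-AS1, and the study's methods for these viruses include puromycin selection. RNA was taken 72 h after infection from 2 biological replicates per group, and which of the study's USP2-AS1 hairpins was used is not given in the sources used here. The comparison thus rests on 1 cell line and an RNA knockdown with residual transcript. The libraries were poly(A)-selected RNA-seq, and the depth recovered from the table was 12330115 and 10772788 reads on listed genes in shctrl, and 11715962 and 14120472 reads in shUSP2-AS1.

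Values are normalized read counts, that is, reads assigned to a gene divided by a scaling factor of the library. USP2-AS1 itself was at 23.2 and 24.2 in shctrl and at 2.10 and 6.16 in shUSP2-AS1. These values come from 24, 22, 2 and 7 reads in the same order. The groups did not overlap, and the log2 fold change was -2.39 (SE 0.56, limma adjusted p = 0.000597). With so few reads the residual level is imprecise, and leaving out 1 library at a time moved the log2 fold change between -2.99 and -1.78.

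De novo synthesis builds nucleotides from small precursors, whereas salvage recycles finished bases and nucleosides. The purine ring is assembled on phosphoribosyl pyrophosphate (PRPP) by PPAT, GART, PFAS, PAICS, ADSL and ATIC, which end at inosine monophosphate (IMP). IMPDH2 then commits IMP to guanine nucleotides. In the pyrimidine branch, CAD begins the ring, UMPS closes the route to uridine monophosphate and CTPS1 converts uridine triphosphate to cytidine triphosphate. Growing and dividing cells, tumour cells among them, draw on these routes to make RNA and DNA, and several of these genes are known targets of the transcription factor MYC.

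One stretch of promoter sequence belongs to the members whose levels fell most. PPAT and PAICS lie head to head on chromosome 4 with 125 bases between their annotated ends, and the RefSeq promoter window of PPAT and 1 of the 3 windows of PAICS hold one and the same E-box, the palindrome CACGTG that MYC and related factors recognise. It is shown from both strands, with ATIC, which holds a pair of E-boxes, beside it. All sequences are from RefSeq on GRCh38.p14, read 5′ to 3′ on the strand of the gene, with the motif in capitals.
PPAT, chr4:56435780-56435809, minus strand, motif 182 bases before the start: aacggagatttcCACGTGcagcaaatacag
PAICS, chr4:56435780-56435801, plus strand, motif 40 bases after the start: ctgtatttgctgCACGTGgaaa
ATIC, chr2:215312001-215312030, plus strand, motif 46 bases before the start: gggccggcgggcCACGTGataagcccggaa
ATIC, chr2:215312076-215312105, plus strand, motif 29 bases after the start: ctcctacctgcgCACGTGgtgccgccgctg

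RefSeq windows ran from 250 bases before to 50 bases after each start. Windows were matched for 8 of the 10 members, with 13 windows in all, and for neither ADSL nor IMPDH2. The E-box was found in 3 of these 13 windows, 1 each of PPAT, PAICS and ATIC, and in 7.26% of all 35116 windows. The PPAT and PAICS windows hold the same site, which is thus counted in both. An E2F motif was searched as TTTCCCGC, TTTGGCGC, TTTCGCGC and TTTGCCGC on both strands. It was found in 1 member window, at a GART start annotated inside the gene, and in 3.31% of all windows.
GART, chr21:33542344-33542367, minus strand, motif 245 bases before that start: agcatTTTGGCGCtcccccccggc
The 3 genes with an E-box do not share one size of change. PPAT and PAICS had the largest fall among the members and ATIC the second smallest. A match is a description of the sequence, and no measure of binding was analysed here.

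Changes were tested with limma on log2(normalized count + 1), with p-values adjusted over all 6812 genes with a mean of at least 10. A gene is called here when the adjusted p is below 0.05 and the change is at least 2-fold. Among the 10 members, 4 were called lower (PPAT, PAICS, PFAS and ADSL) and 0 were called higher, whereas 13.5% of all genes tested were called lower and 16.1% higher. All 10 members passed the adjusted p alone in the lower direction, as did 49.4% of all genes tested, with 50.6% passing it in the higher direction. The deposited table holds only genes for which the authors' own adjusted p was below 0.05 in this same contrast, so passing the p alone was nearly fixed by the choice of rows, and the sizes carry the information. The median log2 fold change of the members was -0.90, beside 0.19 for all genes tested. Fold changes are on the log2(value + 1) scale, and gene positions are those of the table, on hg38.

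**Figure D1:**
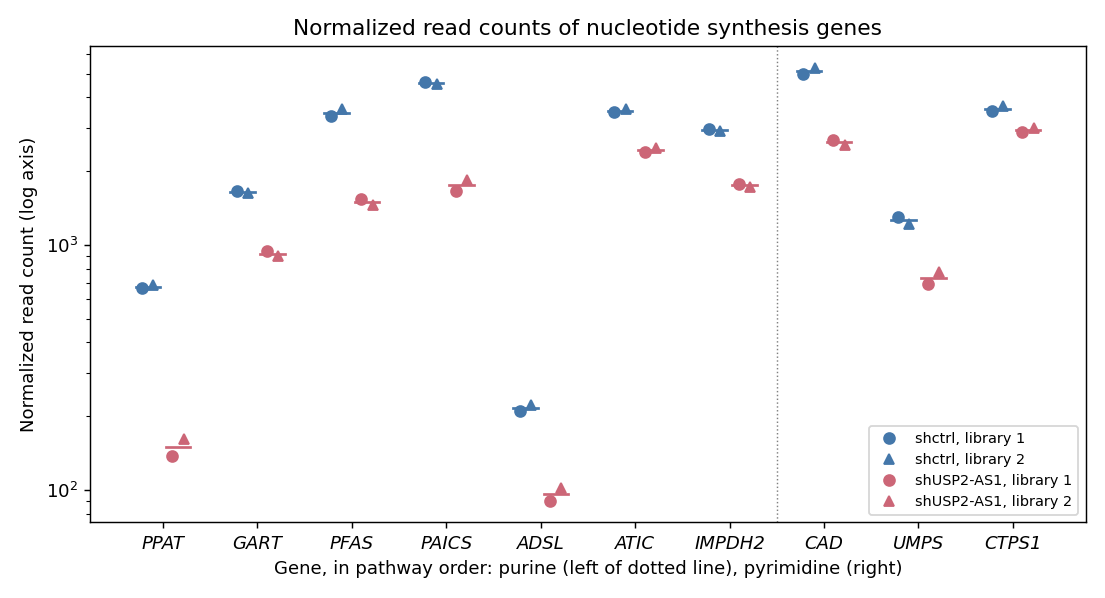
Normalized read count of each member in each library, on a log axis; circles are library 1, triangles library 2, short lines the mean of the 2 libraries per group, and the dotted line parts purine from pyrimidine genes. For every gene both shUSP2-AS1 points lie below both shctrl points, with the widest gap for PPAT (664 and 685 against 138 and 161) and the narrowest for CTPS1.

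PPAT (ENSG00000128059, chr4:56393362-56435615, minus strand) encodes the amidotransferase that catalyses the committed step of purine synthesis. Its normalized count was 664 and 685 in shctrl and 138 and 161 in shUSP2-AS1. Both knockdown libraries were far below both controls, at 22.2% of the control mean, and PPAT had the largest fall of the 10 members. The log2 fold change was -2.17 (SE 0.11, limma adjusted p = 6.65e-12), and it lay between -2.29 and -2.06 over the alternative settings that can move it.

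GART (ENSG00000159131, chr21:33503931-33543491, minus strand) is a single protein with 3 enzymatic activities, 1 of which takes a one-carbon unit from folate. It was at 1660 and 1626 in shctrl and at 942 and 901 in shUSP2-AS1, or 56.1% of the control mean. The groups did not overlap, and the log2 fold change of -0.83 (SE 0.06, limma adjusted p = 1.35e-09) passed the p but not the fold threshold.

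PFAS (ENSG00000178921, chr17:8247618-8270491, plus strand) adds an amide nitrogen from glutamine to the growing purine. It was at 3347 and 3574 in shctrl and at 1541 and 1455 in shUSP2-AS1. The knockdown libraries were at 43.3% of the control mean and were well separated from it, with a log2 fold change of -1.21 (SE 0.06, limma adjusted p = 3.1e-12).

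PAICS (ENSG00000128050, chr4:56435741-56464578, plus strand) acts after a ring closure by GART and carries out a carboxylation and the joining of aspartate. It was at 4599 and 4523 in shctrl and at 1663 and 1838 in shUSP2-AS1. This is the second largest fall among the members, to 38.4% of the control mean, with a log2 fold change of -1.38 (SE 0.06, limma adjusted p = 5e-13). Processed copies of this gene are annotated in the genome (7 pseudogenes named after PAICS and 2 named after PPAT), and how reads matching more than one place were counted is not given in the sources used here.

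ADSL (ENSG00000239900, chr22:40346500-40390463, plus strand) removes fumarate at a pair of steps, in IMP synthesis and in the later conversion of IMP to adenosine monophosphate. It was by far the least abundant member, at 209.7 and 223 in shctrl and at 90.4 and 102 in shUSP2-AS1. Those values come from 217 and 203 reads in shctrl and 86 and 116 reads in shUSP2-AS1. The knockdown libraries were at 44.5% of the control mean without overlap, and the log2 fold change was -1.16 with the widest error of the members (SE 0.15, limma adjusted p = 1.13e-06). In GENCODE 44, 30.6% of the bases of its canonical transcript are shared with a readthrough gene on the same strand, and reads on those bases cannot be assigned to 1 of the genes by position.

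ATIC (ENSG00000138363, chr2:215311956-215349773, plus strand) closes the purine ring with a further one-carbon unit from folate and yields IMP. It was at 3481 and 3583 in shctrl and at 2386 and 2484 in shUSP2-AS1, a fall to 68.9% of the control mean. The log2 fold change of -0.54 (SE 0.05, limma adjusted p = 3.95e-08) was the smallest among the purine genes. IMPDH2 (ENSG00000178035, chr3:49024325-49029408, minus strand), the rate-limiting enzyme of guanine nucleotide synthesis, was at 2980 and 2912 in shctrl and at 1779 and 1730 in shUSP2-AS1. Its groups were also separate, at 59.6% of the control mean, with a log2 fold change of -0.75 (SE 0.05, limma adjusted p = 7.91e-10). A readthrough gene annotated in GENCODE 44 shares 98.8% of its canonical transcript, and the annotation release behind the counts is not given in the sources used here.

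Of the pyrimidine genes, CAD changed most. CAD (ENSG00000084774, chr2:27217369-27243943, plus strand) joins the carbamoyl phosphate, aspartate transcarbamylase and dihydroorotase activities in 1 protein. It was at 5004 and 5290 in shctrl and at 2683 and 2567 in shUSP2-AS1, or 51.0% of the control mean. The log2 fold change of -0.97 (SE 0.05, limma adjusted p = 1.64e-11) fell just short of the fold threshold. CAD passed it without shctrl replicate 1 (-1.01), without shUSP2-AS1 replicate 1 (-1.003) and with the relative log expression (RLE) scaling that DESeq2 uses (-1.09), so its place on either side of the threshold is not settled by these libraries.

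UMPS (ENSG00000114491, chr3:124730433-124749273, plus strand) was at 1299.6 and 1217 in shctrl and at 695 and 772 in shUSP2-AS1, a fall to 58.3% of the control mean with a log2 fold change of -0.78 (SE 0.07, limma adjusted p = 2.46e-08). CTPS1 (ENSG00000171793, chr1:40979688-41012565, plus strand) was at 3503 and 3700.2 in shctrl and at 2882 and 2989 in shUSP2-AS1. It changed least of the 10, by a log2 fold change of -0.29 (SE 0.05, limma adjusted p = 5.05e-05), yet both knockdown libraries were below both controls.

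**Figure D2:**
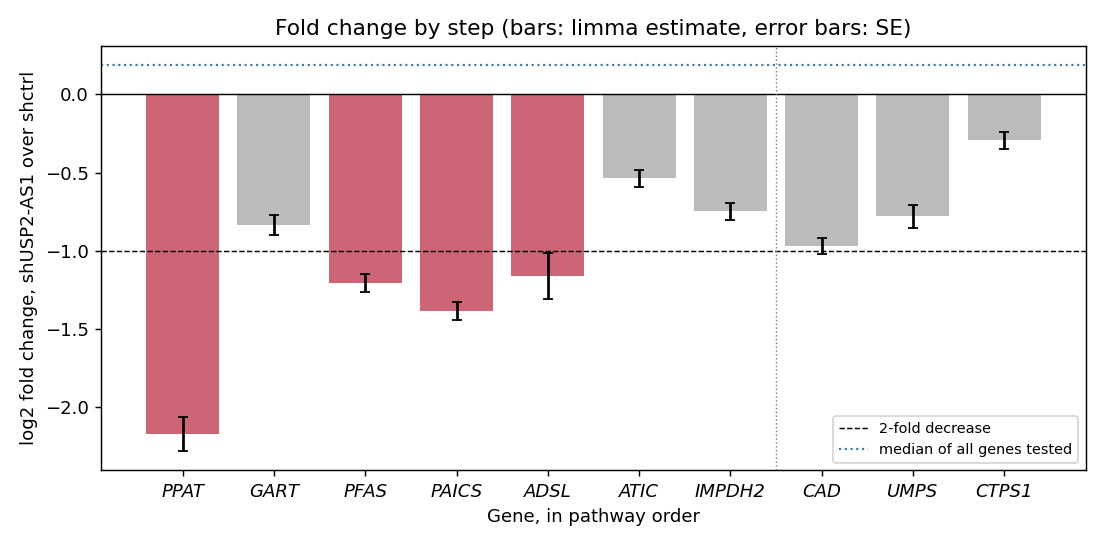
Log2 fold change (shUSP2-AS1 over shctrl) of each member from limma, in pathway order; error bars are 1 SE, red bars are called genes, the dashed line is a 2-fold decrease, the horizontal dotted line the median of all genes tested and the vertical dotted line parts purine from pyrimidine genes. PPAT stands at -2.17 and CTPS1 at -0.29, with the other 8 members between -1.38 and -0.54.

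Summed over the 10 members, the normalized count was 26748 and 27333 in shctrl and 14799 and 14999.8 in shUSP2-AS1, or 55.1% of control. The 7 purine genes together were at 50.5% and the 3 pyrimidine genes at 62.9% of control. The median log2 fold change was -1.16 for the 7 purine genes and -0.78 for the 3 pyrimidine genes. Within shctrl the largest gap between replicates was 6.60% of the mean, for UMPS, and within shUSP2-AS1 it was 15.6%, for PPAT. No member overlapped between groups, and of all genes tested 49.3% were lower and 50.6% higher without overlap. In bulk RNA, fewer cells of a type and less RNA of these genes per cell cannot be told apart.

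The unequal fall changed the balance between members. The log2 ratio of PPAT to its head-to-head partner PAICS was -2.79 and -2.72 in shctrl and -3.58 and -3.50 in shUSP2-AS1, a difference of -0.79. Per kilobase of gene, PAICS was 5.01 and 4.78 times as abundant as PPAT in shctrl and 8.73 and 8.26 times as abundant in shUSP2-AS1. CAD over CTPS1 went from log2 ratios of 0.51 and 0.52 to -0.10 and -0.22, so CAD had the higher count in both control libraries and the lower count in both knockdown libraries. CAD over UMPS differed by -0.19 between groups, with overlap. These are among 6 ratios compared, and with 2 libraries per group the exact two-sided permutation test cannot go below p = 0.333. That was the value for PPAT over PAICS and for CAD over CTPS1 (0.5 adjusted over the 6), and the value for CAD over UMPS was 0.667 (0.8 adjusted).

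**Figure D3:**
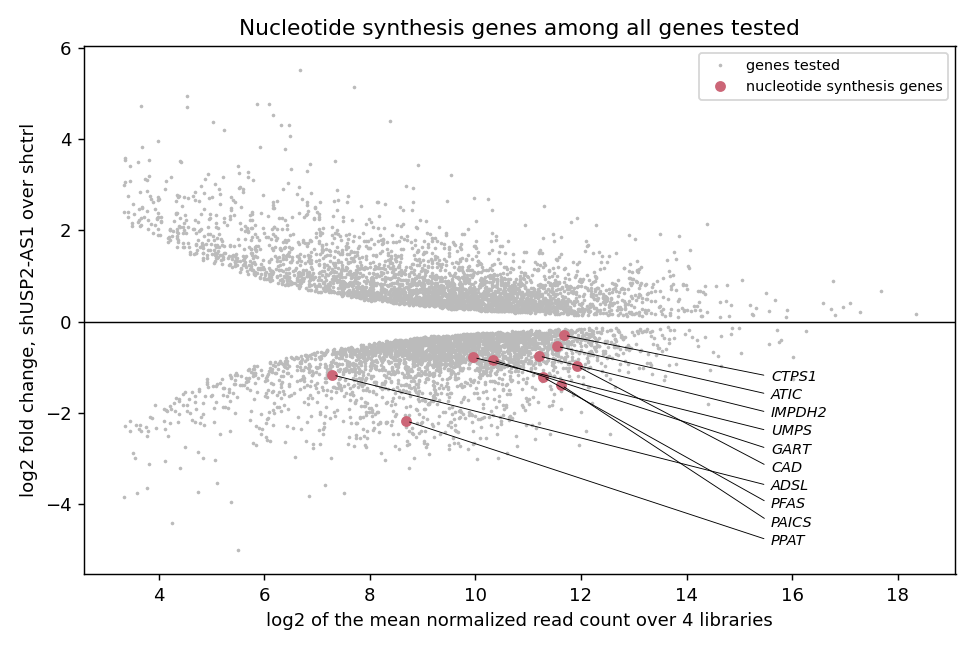
Log2 fold change (shUSP2-AS1 over shctrl) against the log2 mean normalized count over the 4 libraries, for all 6812 genes tested in grey, with the 10 members marked and named. The members lie below 0 across the range of abundance, from ADSL at the low end to CAD at the high end, and the empty band around 0 reflects the rows the table holds.

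To compare levels between genes, normalized counts were divided by the deposited gene length, which is the union of exons. In shctrl the order per kilobase was IMPDH2 (mean 1062), ATIC (932), CAD (609.7), PAICS (607), PFAS (535), CTPS1 (323), GART (212), UMPS (167), PPAT (124) and ADSL (19.3). CAD and PAICS overlapped between the 2 control libraries, and the other neighbours in this order did not. In shUSP2-AS1 the order was ATIC (643), IMPDH2 (633), CAD (311), CTPS1 (263), PAICS (233), PFAS (231), GART (119), UMPS (97.7), PPAT (27.5) and ADSL (8.61). On this length CTPS1 moved up past PAICS and PFAS. ATIC and IMPDH2 overlapped in shUSP2-AS1, as did PAICS and PFAS. The enzyme of the committed purine step, PPAT, was the second lowest member in both groups. The order depends on the length used, and with the length of the GENCODE canonical transcript, chosen after seeing the data, 5 of the 10 members kept their rank. With that length CTPS1 was above PAICS and PFAS in shctrl already (1268 against 716 and 645), so its move past them is lost.

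Genes within 2000 bases of a member were also read, chosen after their values were seen. SON, an RNA splicing cofactor gene on the opposite strand that overlaps GART by 454 bases, had a log2 fold change of -0.23 (SE 0.06, limma adjusted p = 0.000748), smaller than that of GART. QRICH1, which lies 298 bases from IMPDH2 on the same strand, had a log2 fold change of -0.77 (SE 0.07, limma adjusted p = 1.6e-08), near the -0.75 of IMPDH2.

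The remaining enzymes of the same routes were examined as a list of 10 genes, of which 5 were in the table and tested. GMPS and DHODH were called lower and none was called higher, with 4 passing the p in the lower and 1 in the higher direction and a median of -0.58. Of all genes tested, 13.5% were called lower and 16.1% higher, and 49.4% and 50.6% passed the p in these directions. GMPS, which makes guanosine monophosphate downstream of IMPDH2, was at 2008 and 2066 in shctrl and at 833 and 874 in shUSP2-AS1 (log2 fold change -1.25, SE 0.06, limma adjusted p = 5.29e-12). DHODH, the mitochondrial enzyme between CAD and UMPS, was at 576 and 549 in shctrl and at 290.2 and 254 in shUSP2-AS1 (log2 fold change -1.05, SE 0.10, limma adjusted p = 2.85e-08). The DHODH change fell under 2-fold without shUSP2-AS1 replicate 2 (-0.95). The PRPP synthetase genes PRPS1 (-0.57) and PRPS2 (-0.58) fell by less. ADSS2, which acts on the branch from IMP to adenosine monophosphate, was at 0.26 (limma adjusted p = 0.000799). It was at 0.14 in DESeq2 with its own size factors (adjusted p = 0.113), which were estimated from the listed genes alone. IMPDH1, CTPS2, ADSS1, PRPSAP1 and PRPSAP2 are not in the table and are not counted.

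Around these enzymes, counts and medians were taken for lists of genes that supply or use nucleotides. The counts of every list stand beside 13.5% of all genes tested called lower and 16.1% called higher. By the p alone, these shares of all genes tested were 49.4% and 50.6%. Of 23 genes of folate, one-carbon and serine metabolism, 15 were tested, and 5 were called lower and 1 higher, while 12 passed the p in the lower and 3 in the higher direction (median -0.62). PHGDH, which opens serine synthesis, fell by 1.74 on the log2 scale, and ALDH1L1, which oxidises formyl-tetrahydrofolate, rose from 13.5 and 26.4 to 82.0 and 82.8 (log2 fold change 2.06).

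In the list for nitrogen and aspartate supply, 5 of 10 genes were tested, and 2 passed the p in the lower and 3 in the higher direction (median 0.23). GLUD1 (0.38) and SLC38A2 (0.23) were higher and SLC1A5 (-0.36) lower, each past the p. SLC38A2 missed it in DESeq2 with its own size factors (0.12, adjusted p = 0.0654). The pentose phosphate pathway supplies ribose for PRPP, and all 8 of its genes were tested with none called. Of these, 5 passed the p in the lower and 3 in the higher direction (median -0.20), with RPIA at -0.77, PGLS at 0.72, H6PD at 0.66 and PGD at -0.41.

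Of 15 salvage genes, 11 were tested and 4 are not in the table. Among those tested, 2 were called lower and 0 higher, beside 13.5% lower and 16.1% higher for all genes tested. The p was passed by 9 in the lower and 2 in the higher direction (median -0.41). For all genes tested these shares were 49.4% and 50.6%. TK1, the cytosolic thymidine kinase, was at 3967 and 3717 in shctrl and at 598 and 696 in shUSP2-AS1 (log2 fold change -2.57). UCK2, which phosphorylates uridine and cytidine, was at 1801 and 1896 in shctrl and at 469 and 408 in shUSP2-AS1 (log2 fold change -2.08). UPP1 (-0.89) and DCK (-0.83) fell by less than 2-fold. Of 7 nucleotide kinases tested among 14, only DTYMK was called (-1.13), with AK3 at 0.94 (1.002 and called with upper-quartile scaling), NME4 at -0.81 and CMPK1 at 0.59 (median -0.34).

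The deoxynucleotide list, which feeds DNA synthesis, had the lowest median of these related lists, -1.12. Of its 10 genes, 8 were tested, and 7 were called lower and 0 higher. RRM2, the regulated subunit of ribonucleotide reductase, was at 3818 and 3744 in shctrl and at 748 and 751 in shUSP2-AS1 (log2 fold change -2.33). RRM1, the large subunit, fell by 1.81 on the log2 scale. RRM2B, the subunit known to be induced by p53, was the exception and rose (0.67). Of the calls, that of DUT was lost without shUSP2-AS1 replicate 1 (-0.94) and that of DCTPP1 without shctrl replicate 1 (-0.97). This list shares TK1 with the salvage list, DTYMK with the kinases and TYMS with the folate list, and all 3 are among the calls of both lists.

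Genes of nucleotide breakdown had a positive median of 0.47 over 8 tested of 17, with 1 called lower and 2 higher, and 3 passing the p in the lower and 5 in the higher direction. TYMP, which splits thymidine, rose from 219 and 193 to 592 and 541 (log2 fold change 1.45). NT5E, the cell-surface enzyme that makes adenosine, rose from 673 and 595 to 1591 and 1517 (log2 fold change 1.30). NUDT1, which clears oxidised nucleotides, fell (-1.37), as did ADA (-0.82).

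**Figure D4:**
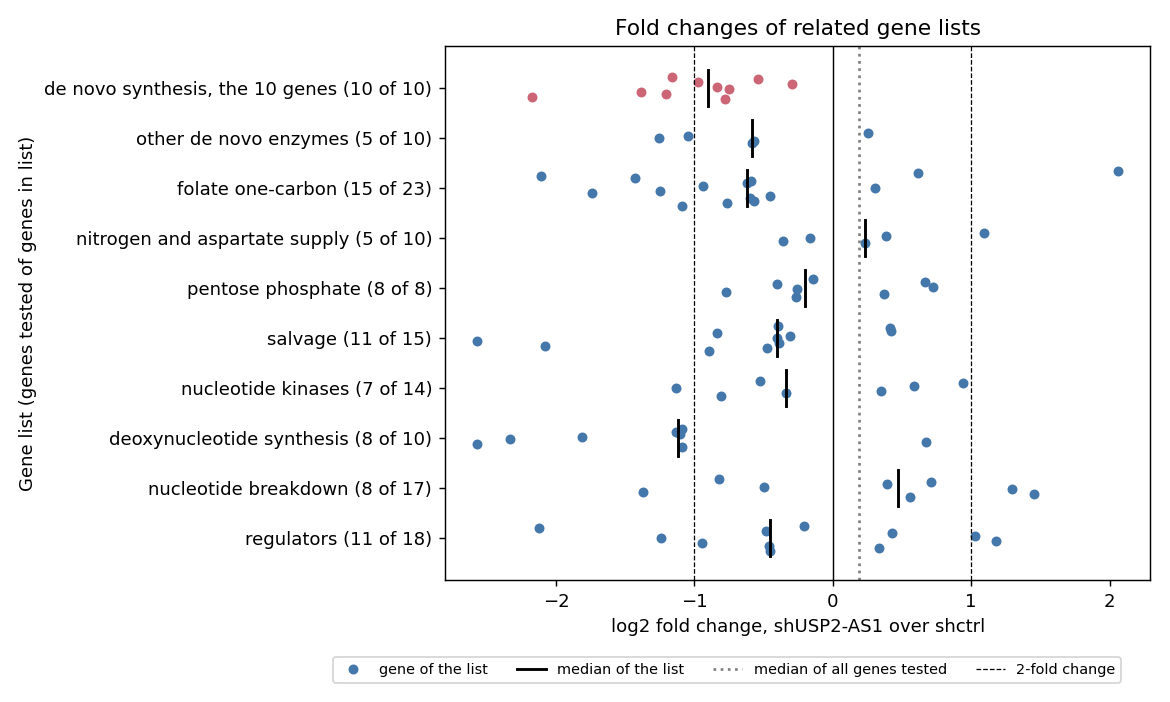
Log2 fold change (shUSP2-AS1 over shctrl) of every tested gene of each list; each point is 1 gene, short black lines are list medians, the dotted line is the median of all genes tested (0.19) and dashed lines mark 2-fold changes. The medians run from -1.12 for deoxynucleotide synthesis to 0.47 for nucleotide breakdown.

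Known regulators of these genes were read in the same fit. MYC was at 2965 and 2928 in shctrl and at 2104 and 2168 in shUSP2-AS1 (log2 fold change -0.46, SE 0.05, limma adjusted p = 2.86e-07), a change that passed the p but was below 2-fold. E2F1, which drives genes of DNA synthesis, was at 1280 and 1241 in shctrl and at 276 and 304 in shUSP2-AS1 (log2 fold change -2.12, SE 0.08, limma adjusted p = 2.36e-13). ATF4, which drives amino acid and one-carbon genes under stress, changed by -0.21 (SE 0.06, limma adjusted p = 0.00225), and by -0.14 without shUSP2-AS1 replicate 1 (limma adjusted p = 0.0574). Among the MAX-binding partners, MXD3 was called lower (-1.24), and MXD4 (1.18) and MXD1 (1.03) were called higher. MXD1 was under 2-fold without shctrl replicate 2 (0.95) or without shUSP2-AS1 replicate 2 (0.99). Of the 18 regulators, 11 were tested, with 7 passing the p in the lower and 4 in the higher direction (median -0.45). For all genes tested these shares were 49.4% and 50.6%, with 13.5% called lower and 16.1% called higher.

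Epithelial markers set beside these results also moved. Of 6, 4 were in the table, with KRT8 the most abundant, and their summed count was 179244 and 168132 in shctrl and 106336 and 112823 in shUSP2-AS1. KRT18 (-1.05) and KRT8 (-0.77) and KRT7 (-0.49) were lower and KRT19 (0.75) higher, and CDH1 and EPCAM are not in the table. Of 11 markers of immune, endothelial and mesenchymal cells, only ACTA2 (1.79) and COL1A1 (1.05) were in the table, with COL1A1 the more abundant and a summed count of 378 and 442 in shctrl and 987 and 1078 in shUSP2-AS1. Both genes were higher in shUSP2-AS1, and COL1A1 was under 2-fold without shctrl replicate 1 (0.96) or without shUSP2-AS1 replicate 2 (0.94). The part of these marker changes in the fall of the nucleotide genes was not tested.

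**Figure D5:**
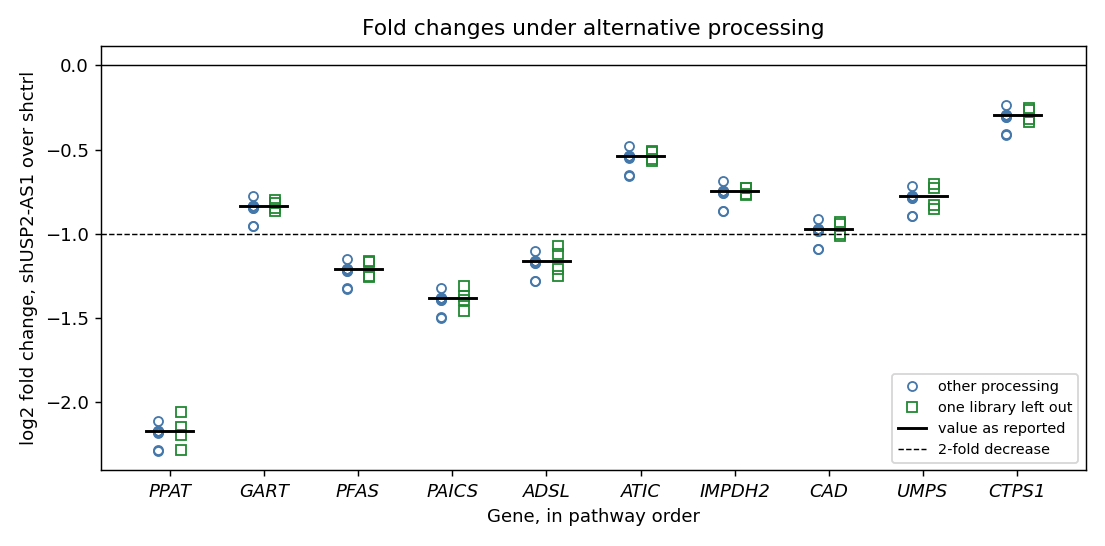
Log2 fold change (shUSP2-AS1 over shctrl) of each member in the reported analysis and under the alternative settings, leaving out the setting with no fold threshold, with circles for other processing, squares for 1 library left out, short lines for the value as reported and a dashed line at a 2-fold decrease. Each member stays below 0 in every setting drawn, and CAD is the member whose points lie on both sides of the 2-fold line.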

How the data were processed

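RNA-seq of A549 cells was analysed in 2 groups (shctrl and shUSP2-AS1) of 2 biological replicates. The submitters' processing notes name HISAT2 2.0.5, featureCounts 1.5.0-p3, DESeq2 1.20.0 and hg38. The strand setting and the annotation release are not given in the sources used here. The deposited values are normalized counts, a signal that the authors scaled per library. The table also holds the authors' log2 fold changes, p-values and adjusted p-values, which were used only to establish which rows it holds and which column group is which. It lists 6828 genes, all with an adjusted p below 0.05 in the authors' test, so genes outside it were not analysed here.

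Each value divided by the value of 1 read (0.966 and 1.10 in shctrl, 1.05 and 0.880 in shUSP2-AS1) gave whole reads for 100% of values within 0.05. These recovered counts were used only in the alternatives. The column groups were matched to the labels by the table's own heading and by the sign of its fold changes, which was that of knockdown over control in all 6828 rows.

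The main test was limma 3.58.1 in R 4.3.3 (lmFit, eBayes with trend) on log2(value + 1), with group as the only term, for genes averaging 10 or more over the libraries, and Benjamini-Hochberg adjustment over 6812 genes. Because the values are normalized, no count model was the main test. Genes were called at an adjusted p below 0.05 and a log2 fold change of at least 1 in size. edgeR 4.0.16 and DESeq2 1.42.0 on recovered reads, other scalings, filters and pseudocounts, a replicate block and leaving out each library were alternatives. Scaling factors newly estimated in these alternatives came from the listed genes alone, all of which had passed the authors' test. In simulated data with 200 changed genes, limma recovered 100% with 0 other genes called. Replicate libraries differed by more than sampling noise (chi-square per degree of freedom 3.75 in shctrl and 3.84 in shUSP2-AS1). Deviations of same-numbered libraries correlated at -0.04 across genes, so no strong shared replicate effect was seen. Whether same-numbered libraries were prepared together is not given in the sources used here, and this correlation cannot decide it.

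The members and gene lists were chosen with earlier results of these data known. Named genes are the members, USP2-AS1, the 4 genes of each list with the largest change among those passing the adjusted p without overlap of groups, the other enzymes of the same routes, and MYC, E2F1 and ATF4. Some genes this rule names are not reported here. Promoter sequences are RefSeq's on GRCh38.p14, and overlaps with other genes were taken from GENCODE 44.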

Additional observations from a re-analysis of the deposited data

How the results depend on the processing

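All 10 members were lower in shUSP2-AS1 under each of the 16 alternatives, and 0 results reversed. The filters, the replicate block, the test against 2-fold and the absent fold threshold cannot move a member's log2 fold change. The direction of the members was thus open only to the scalings, count models, pseudocount and left-out libraries. The number of members called lower was 4 in the reported analysis, 3 when limma tested against a 2-fold change (ADSL was then not called, adjusted p = 0.608) and 10 with no fold threshold. It ranged from 4 to 5 when 1 library was left out, the gain being CAD. RLE scaling and DESeq2 with its own size factors also called CAD. Genes of the related lists called lower numbered 17 (6 higher), 10 (4 higher) in the test against 2-fold and 50 (25 higher) with no fold threshold, and 16 to 17 without 1 library. All genes called lower numbered 922 as reported, 523 in the test against 2-fold, 3362 with no fold threshold and 882 to 955 without 1 library. Those called higher numbered 1098, then 541, 3449 and 1083 to 1101. USP2-AS1 kept its log2 fold change of -2.39 in the test against 2-fold but was not called (adjusted p = 0.0723), and ranged from -2.99 to -1.78 without 1 library. With RLE scaling the median of all genes shifted by -0.12 and 1143 genes were called lower and 934 higher, and the members' median stayed 1.09 below that of all genes. RLE scaling put MXD1 (0.91) and COL1A1 (0.93) under 2-fold and UPP1 (-1.01) over it, and upper-quartile scaling put DHODH (-0.99) and KRT18 (-0.99) under it and AK3 (1.002) over it. In the 100 bases before the start, the E-box was in 1 member (ATIC) and the E2F motif in 0. In shUSP2-AS1 replicate 2, 5 members kept the rank per kilobase of the shctrl mean, as did 5 with canonical transcript lengths. The replicate block left 4 members called, and it changed no call of the 10 members. Of the members, depth limits ADSL most, and USP2-AS1 and ALDH1L1 rest on still fewer reads. Genes outside the table cannot be counted as unchanged.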
